A study of Homo sapiens with 6 samples.

Results

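Genes of glycolysis and of the hypoxia response were followed in 3 related human breast cancer lines, in cells sorted by surface markers. The list holds 44 genes, 19 that encode glycolytic enzymes or close partners of the pathway and 25 other genes of the hypoxia response. Members are named by gene symbol, with no threshold on measured values. The list was chosen with earlier results of these data known. Its counts beside the shares of all clusters are therefore descriptions and not an independent test. Of the 44, 41 were measured, 18 enzymes and 23 others, among 18417 gene symbols carried by the array. PGAM1 shared all 5 of its transcript clusters with another symbol and was not attributed a value, and SLC16A3 and CA9 were not analysed here.

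The cells came from 231BrM-2a, a derivative of MDA-MB-231 selected for brain metastasis, from 231BoM-1833, a derivative selected for bone metastasis, and from the parental line MDA-MB-231, a triple-negative breast cancer line, with 2 biological replicates each. In every line the cells were sorted on magnetic columns for absence of CD24 and presence of CD44 and ESA (the EPCAM protein), a surface profile used to enrich breast cancer stem cells. All lines were grown in the same serum-containing medium, and the labels name no hypoxic treatment and no oxygen level. Each RNA sample was read on its own array, an Affymetrix Human Gene 1.0 ST chip, 6 in all. The arrays of replicates 1 and 2 are called brain, bone and parental array 1 and 2. Values are RMA log2 expression values, and a gene is called where the adjusted p (limma, over all 21214 clusters with a symbol) is under 0.05. Differences are log2 changes ± SE. Nothing in the labels ties the replicates to different cultures or sorts, and the p-values therefore reflect only the variation among these arrays, which may be technical.

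Glycolysis splits glucose into pyruvate in the cytosol, and lactate dehydrogenase turns pyruvate into lactate when mitochondria do not take it up. When oxygen is short, the prolyl hydroxylases of the EGLN family stop marking the alpha subunits HIF1A and EPAS1 (HIF-2 alpha) for destruction, and these subunits, paired with ARNT, switch on genes for glucose import, glycolysis, pyruvate diversion, mitophagy and collagen modification. The alpha subunits are controlled mainly as proteins, so transcript levels alone do not report their activity. Many steps of the pathway are shared by pairs of related genes with different tissue patterns and different responses to oxygen.

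Array medians over clusters with a symbol lay between 7.25 and 7.30, and replicate arrays correlated at r = 0.9935 to 0.9959 across clusters, which are not independent replicates. The array values of the sort markers ran from 11.45 to 12.17 for CD44, from 7.28 to 8.32 for EPCAM and from 5.76 to 6.49 for CD24. CD44 was lower in 231BrM-2a, at 11.45 and 11.46, than in 231BoM-1833, at 12.17 and 11.82 (-0.54 ± 0.13, adjusted p = 0.014), a call lost without bone array 1 (0.0565), brain array 1 (0.074) or brain array 2 (0.0704). Of 9 leukocyte markers, 1 was called in 231BrM-2a and 1 in 231BoM-1833 against MDA-MB-231. It was CD14 in both, lower in 231BrM-2a and higher in 231BoM-1833. The summed linear value of the 9 was 2468 to 2579 in 231BrM-2a, 3547 to 4123 in 231BoM-1833 and 2996 to 3121 in MDA-MB-231. CD68, with log2 values from 10.88 to 11.65, makes up most of each sum, so the sums mainly follow that gene. Of 9 luminal markers, 3 rose and 1 fell in 231BrM-2a, and 1 rose and 1 fell in 231BoM-1833, each against MDA-MB-231. Between the derivatives 4 were higher and 1 lower in 231BrM-2a. The largest change in 231BrM-2a against MDA-MB-231 was the fall of KRT19, at -1.60. The luminal sums were 10020 to 10635 in 231BrM-2a, 8386 to 8546 in 231BoM-1833 and 8525 to 9000 in MDA-MB-231, made up mostly of KRT8 and KRT18. Of 10 fibroblast and endothelial markers, 4 were higher and 2 lower in 231BrM-2a, and 1 was higher and 1 lower in 231BoM-1833, each against MDA-MB-231, with sums of 1008 to 1155, 936 to 1034 and 880 to 916 in the same lines. Among them, the receptor gene PDGFRB and the matrix gene DCN changed by 1.70 ± 0.13 and 0.98 ± 0.16 in 231BrM-2a, and the endothelial receptor gene KDR by -1.13 ± 0.13 (adjusted p = 6.54e-05, 0.00296 and 0.000425). RMA values have no true zero and came without detection calls, so no marker can be said to be absent. Of 15 proliferation genes, 4 rose in 231BrM-2a against MDA-MB-231 (median change 0.28), 3 rose and 2 fell in 231BoM-1833 against MDA-MB-231, and 4 were higher in 231BrM-2a than in 231BoM-1833. These were 26.7%, 33.3% and 26.7% of the list, beside 19.0%, 15.8% and 23.5% of all clusters called. The same all-cluster shares hold for the marker comparisons above. The mean log2 value of the 15 proliferation genes was 10.39 to 10.54 in 231BrM-2a, 9.95 to 10.39 in 231BoM-1833 and 10.12 to 10.15 in MDA-MB-231. The part of these lists in the results below was not tested.

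In the brain-selected line, 16 of the 41 measured genes were higher than in MDA-MB-231 and 2 were lower, against 10.5% of all clusters called higher and 8.59% called lower. Among the 18 enzymes, 5 rose and 1 fell. Among the 23 other genes, 11 rose and 1 fell. At 1.5-fold or more, 10 of the 41 were called higher and 1 lower, beside 5.86% and 3.85% of all clusters. The arrays of the 2 lines did not overlap for 34 of the 41 members, and for 63.8% of all clusters. The median change was 0.14 for the enzymes and 0.39 for the other genes, beside -0.05 for all clusters. The 23 members that were not called had changes between -0.32 and 0.39 (adjusted p = 0.0501 to 0.976). When any 1 of the 4 arrays was left out, 8 to 10 members were called higher and 1 lower: 10 and 1 without parental array 1, 8 and 1 without parental array 2, 10 and 1 without brain array 1 and 9 and 1 without brain array 2.

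ALDOC, the aldolase isoenzyme best known from brain, had the largest change of the list in 231BrM-2a. Its log2 values were 8.62 and 8.93 in 231BrM-2a, 7.28 and 6.97 in 231BoM-1833, and 7.27 and 7.18 in MDA-MB-231. Both brain-line arrays stood above the 4 others, which overlapped. The increase over MDA-MB-231 was 1.55 ± 0.14, or 2.92-fold (adjusted p = 0.00015). ALDOA, the aldolase of muscle and most other tissues, had 9.51 and 9.61 in 231BrM-2a and 9.44 and 9.49 in MDA-MB-231, a difference of 0.09 ± 0.10 (adjusted p = 0.572). The 95% interval of that difference ran from -0.14 to 0.32.

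ENO2, the enolase of neurons and neuroendocrine cells, was the only member called higher in both derivatives against MDA-MB-231. It had 10.24 and 10.50 in 231BrM-2a, 9.99 and 9.68 in 231BoM-1833, and 9.22 and 8.96 in MDA-MB-231. The 3 lines did not overlap and stood in that order. The change was 1.28 ± 0.15 in 231BrM-2a and 0.75 ± 0.15 in 231BoM-1833 (adjusted p = 0.000628 and 0.0124). The bone-line call was lost without parental array 2 (adjusted p = 0.106). ENO1, the enolase found in most tissues, differed by -0.10 ± 0.10 in 231BrM-2a and -0.16 ± 0.10 in 231BoM-1833 (adjusted p = 0.546 and 0.319).

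HK2, the inducible hexokinase that traps glucose in the cell, went the other way. It had 9.77 and 9.80 in 231BrM-2a, 10.76 and 10.63 in 231BoM-1833, and 10.68 and 10.56 in MDA-MB-231. The brain line alone was low, and the other lines overlapped. It fell by 0.83 in 231BrM-2a (SE 0.11, adjusted p = 0.000975). HK1, the constitutive hexokinase, differed by -0.01 ± 0.11 (adjusted p = 0.976).

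PFKFB4 makes and removes fructose 2,6-bisphosphate, the allosteric activator of phosphofructokinase. It had 8.14 and 8.20 in 231BrM-2a, 7.11 and 7.17 in 231BoM-1833, and 7.45 and 7.45 in MDA-MB-231. The lines did not overlap, with the bone line lowest. The increase in 231BrM-2a was 0.72 ± 0.10 (adjusted p = 0.00152), and the difference of 231BoM-1833 was -0.31 ± 0.10 (adjusted p = 0.0663). PFKFB3, its relative with strong kinase activity, differed by -0.14 ± 0.13 in 231BrM-2a (adjusted p = 0.473).

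Smaller enzyme changes were called for GPI and PGK1. GPI, which converts glucose 6-phosphate to fructose 6-phosphate, had 11.92 and 12.05 in 231BrM-2a, 11.30 and 11.14 in 231BoM-1833, and 11.59 and 11.43 in MDA-MB-231. The lines did not overlap, and the brain line was highest, by 0.47 ± 0.12 over MDA-MB-231 (adjusted p = 0.0216). PGK1, the first ATP-forming step, had 12.87 and 12.99 in 231BrM-2a and 12.57 and 12.44 in MDA-MB-231 (0.42 ± 0.11, adjusted p = 0.0275). Both calls were thin. GPI was not called without parental array 2 (adjusted p = 0.153), brain array 1 (0.0624) or brain array 2 (0.147). PGK1 was not called without parental array 1 (0.0647), parental array 2 (0.174), brain array 1 (0.076) or brain array 2 (0.173). The calls of ALDOC, ENO2, HK2 and PFKFB4 were kept in 231BrM-2a under all 13 alternatives that refitted or rescaled the values of this comparison.

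The other 12 enzymes were not called in 231BrM-2a. They included the phosphofructokinase subunits PFKP (0.26 ± 0.11, adjusted p = 0.153), PFKL (0.29 ± 0.11, adjusted p = 0.103) and PFKM (-0.08 ± 0.12, adjusted p = 0.688). LDHA, which forms lactate, differed by 0.10 ± 0.14, with a 95% interval from -0.22 to 0.41. PKM, the last step to pyruvate, differed by 0.19 ± 0.11, GAPDH by -0.09 ± 0.10 and TPI1 by 0.20 ± 0.12, with adjusted p between 0.274 and 0.566. PGM1, which links glycogen to glycolysis, differed by 0.10 ± 0.11.

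**Figure D1:**
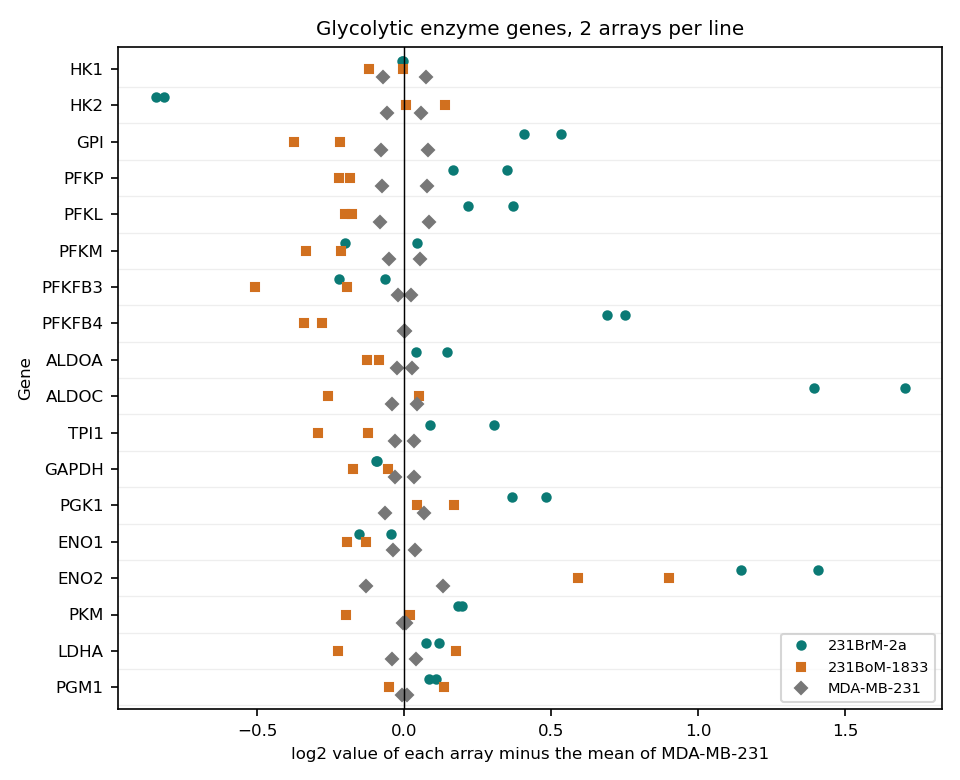
Log2 value of each array minus the MDA-MB-231 mean of that gene (horizontal axis) for the 18 measured enzyme genes (vertical axis), with 2 points per line. ALDOC and ENO2 lie farthest right in 231BrM-2a (changes of 1.55 and 1.28) and HK2 farthest left (-0.83). The 231BoM-1833 mean is below 0 for 14 of the 18, while the median change of all clusters was -0.05. Only ENO2 was called in 231BoM-1833 against MDA-MB-231, as higher.

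Glucose import and the diversion of pyruvate from mitochondria both had called members in 231BrM-2a. SLC2A1 and SLC2A3 encode the glucose transporters GLUT1 and GLUT3. SLC2A1 had 11.69 and 11.81 in 231BrM-2a, 11.50 and 11.61 in 231BoM-1833, and 11.27 and 11.23 in MDA-MB-231. SLC2A3 had 11.25 and 11.35, 11.23 and 10.83, and 10.82 and 10.68 in the same lines. Both derivatives stood above MDA-MB-231 on each array for each transporter. The brain line passed, by 0.50 ± 0.11 for SLC2A1 and 0.54 ± 0.14 for SLC2A3 (adjusted p = 0.0104 and 0.0287), while the bone line differed by 0.31 ± 0.11 and 0.28 ± 0.14 (adjusted p = 0.079 and 0.216). SLC2A1 was not called without parental array 1 (0.0506), parental array 2 (0.077) or brain array 2 (0.0893), and SLC2A3 not without parental array 1 (0.0744), parental array 2 (0.174), brain array 1 (0.0873) or brain array 2 (0.158).

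PDK1 and PDK3 encode kinases that switch off pyruvate dehydrogenase. PDK1 had 9.53 and 9.56 in 231BrM-2a, 8.84 and 8.75 in 231BoM-1833, and 8.85 and 8.93 in MDA-MB-231. PDK3 had 7.65 and 7.61 in 231BrM-2a, 7.32 and 7.29 in 231BoM-1833, and 7.02 and 7.0002 in MDA-MB-231. PDK1 was high on the brain-line arrays, with the bone and parental arrays close together below them, and PDK3 was graded over the 3 lines without overlap. The brain-line increases were 0.66 ± 0.10 and 0.62 ± 0.10 (adjusted p = 0.00263 and 0.00288), and both were kept under all 13 alternatives that refitted or rescaled the values of this comparison. The bone-line difference of PDK3 was 0.29 ± 0.10 (adjusted p = 0.0763).

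Of the 4 collagen-modifying hydroxylases among the members, all but PLOD2 rose in 231BrM-2a. P4HA1 and P4HA2 encode catalytic subunits of collagen prolyl hydroxylase, and PLOD1 and PLOD2 encode lysyl hydroxylases. P4HA2 had 10.64 and 10.80 in 231BrM-2a, 9.86 and 9.64 in 231BoM-1833, and 9.82 and 9.58 in MDA-MB-231. P4HA1 had 11.44 and 11.29, 10.52 and 10.43, and 10.49 and 10.46 in the same lines. For both genes the brain line stood apart and the other lines overlapped. P4HA2 rose 2.02-fold (1.02 ± 0.13, adjusted p = 0.000975) and P4HA1 1.86-fold (0.89 ± 0.11, adjusted p = 0.000671) in 231BrM-2a. In 231BoM-1833 their differences were 0.05 ± 0.13 and 0.00 ± 0.11, with 95% intervals of -0.25 to 0.34 and -0.24 to 0.24.

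PLOD1 had 10.31 and 10.48 in 231BrM-2a, 9.79 and 9.87 in 231BoM-1833, and 9.76 and 9.75 in MDA-MB-231. It rose by 0.64 ± 0.11 in 231BrM-2a (adjusted p = 0.00376). PLOD2, which forms the telopeptide cross-link precursors of collagen, differed by 0.30 ± 0.14 (adjusted p = 0.174). The brain-line calls of P4HA1, P4HA2 and PLOD1 were kept under all 13 alternatives that refitted or rescaled the values of this comparison.

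ADM encodes the vasodilator peptide adrenomedullin. It had 11.27 and 11.66 in 231BrM-2a, 10.97 and 10.30 in 231BoM-1833, and 10.49 and 10.47 in MDA-MB-231. The brain-line arrays were the highest, and the bone-line arrays lay on both sides of MDA-MB-231. The increase in 231BrM-2a was 0.98 ± 0.21 (adjusted p = 0.0105), lost without parental array 1 (0.0573), parental array 2 (0.0741) or brain array 2 (0.0876).

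BNIP3 and BNIP3L, related receptors that mark mitochondria for autophagy, changed in different lines. BNIP3 had 11.35 and 11.33 in 231BrM-2a, 10.81 and 10.49 in 231BoM-1833, and 10.69 and 10.88 in MDA-MB-231, and rose by 0.56 ± 0.13 in 231BrM-2a (adjusted p = 0.0174). BNIP3L had 10.54 and 10.70 in 231BrM-2a, 11.08 and 11.20 in 231BoM-1833, and 10.69 and 10.71 in MDA-MB-231, and rose by 0.44 ± 0.11 in 231BoM-1833 (adjusted p = 0.0282). The brain line was highest for BNIP3 and the bone line for BNIP3L. In the direct comparison of 231BrM-2a with 231BoM-1833, BNIP3 was higher by 0.69 ± 0.13 and BNIP3L lower, at -0.52 ± 0.11 (adjusted p = 0.00495 and 0.00822). The BNIP3 call against MDA-MB-231 was lost without parental array 1 (0.114), parental array 2 (0.0505), brain array 1 (0.0896) or brain array 2 (0.0868). The BNIP3L call in 231BoM-1833 against MDA-MB-231 was lost without parental array 1 (0.117), parental array 2 (0.127) or bone array 2 (0.0926). Between the derivatives, BNIP3L was not called without brain array 1 (0.0752).

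NDRG1, a stress-responsive gene that hypoxia and iron loss induce, had 11.14 and 11.08 in 231BrM-2a and 10.69 and 10.68 in MDA-MB-231 (0.42 ± 0.11, adjusted p = 0.03). MXI1, an antagonist of MYC, fell by 0.40 in 231BrM-2a (SE 0.10, adjusted p = 0.0227), with 8.23 and 8.22 in 231BrM-2a and 8.66 and 8.59 in MDA-MB-231. Neither call outlasted the removal of an array. Without parental array 1, parental array 2, brain array 1 and brain array 2, the adjusted p was 0.11, 0.141, 0.145 and 0.111 for NDRG1 and 0.115, 0.0871, 0.102 and 0.12 for MXI1.

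Several standard hypoxia reporters did not pass in 231BrM-2a. KDM3A, a histone demethylase, and EGLN3, a HIF prolyl hydroxylase, missed the threshold closely (0.37 ± 0.11 and 0.39 ± 0.12, adjusted p = 0.0501 and 0.0505). EGLN1, the main HIF prolyl hydroxylase, differed by 0.35 ± 0.14 (adjusted p = 0.111) and the oxidoreductase gene ERO1A by 0.24 ± 0.10 (adjusted p = 0.149). ANKRD37 had a negative difference of -0.32 ± 0.10 (adjusted p = 0.0584). DDIT4, an inhibitor of mTORC1, the lipoprotein receptor gene VLDLR and STC2, a secreted glycoprotein gene, differed by -0.06 ± 0.18, -0.13 ± 0.12 and 0.09 ± 0.15, with adjusted p between 0.502 and 0.854. The values of STC2 were low, at 5.22 and 5.12 in 231BrM-2a and 4.89 and 5.28 in MDA-MB-231. Array medians lay between 7.25 and 7.30. With a signal this low, the test cannot decide whether STC2 changed.

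**Figure D2:**
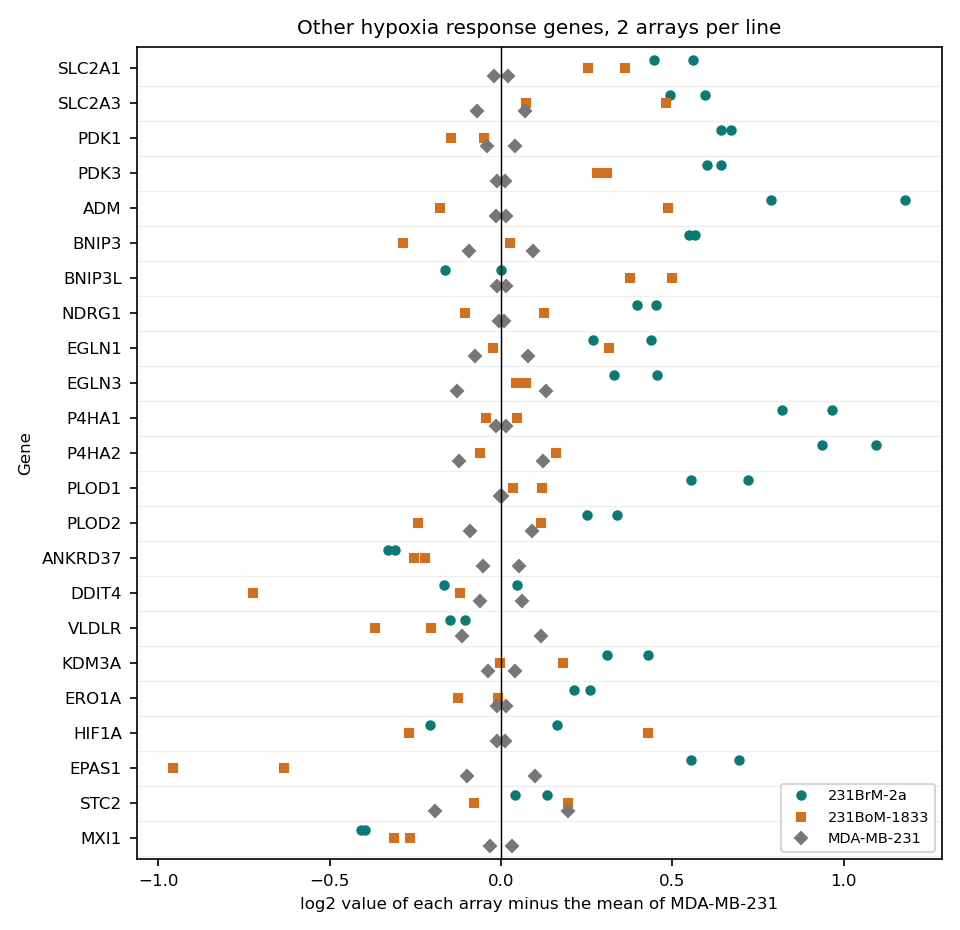
Log2 value of each array minus the MDA-MB-231 mean of that gene (horizontal axis) for the 23 other measured hypoxia genes (vertical axis), with 2 points per line. The 231BrM-2a points of P4HA1, P4HA2 and ADM lie farthest right (changes of 0.89, 1.02 and 0.98), and EPAS1 is right of 0 in 231BrM-2a and left of 0 in 231BoM-1833.

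The 2 HIF alpha subunit genes differed from each other. HIF1A had 11.69 and 12.06 in 231BrM-2a, 12.32 and 11.63 in 231BoM-1833, and 11.91 and 11.88 in MDA-MB-231. The derivative arrays lay on both sides of the parental ones. The differences were -0.02 ± 0.21 in 231BrM-2a and 0.08 ± 0.21 in 231BoM-1833, with 95% intervals of -0.50 to 0.45 and -0.39 to 0.56. The 231BoM-1833 replicates of HIF1A were 0.70 apart, the widest replicate gap of any member in that line.

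EPAS1, which encodes HIF-2 alpha, was the only member called in opposite directions in the derivatives. It had 10.48 and 10.34 in 231BrM-2a, 9.15 and 8.83 in 231BoM-1833, and 9.89 and 9.69 in MDA-MB-231. The 3 lines did not overlap. It rose by 0.62 ± 0.14 in 231BrM-2a (adjusted p = 0.0128) and fell by 0.80 in 231BoM-1833 (SE 0.14, adjusted p = 0.00641). The derivatives differed by 1.42 ± 0.14, or 2.67-fold (adjusted p = 0.000117), and that call was kept under all 13 alternatives that refitted or rescaled the values of this comparison. Against MDA-MB-231, the brain-line call was lost without parental array 2 (0.109) or brain array 1 (0.0906), and the bone-line call without parental array 1 (0.0546).

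**Figure D3:**
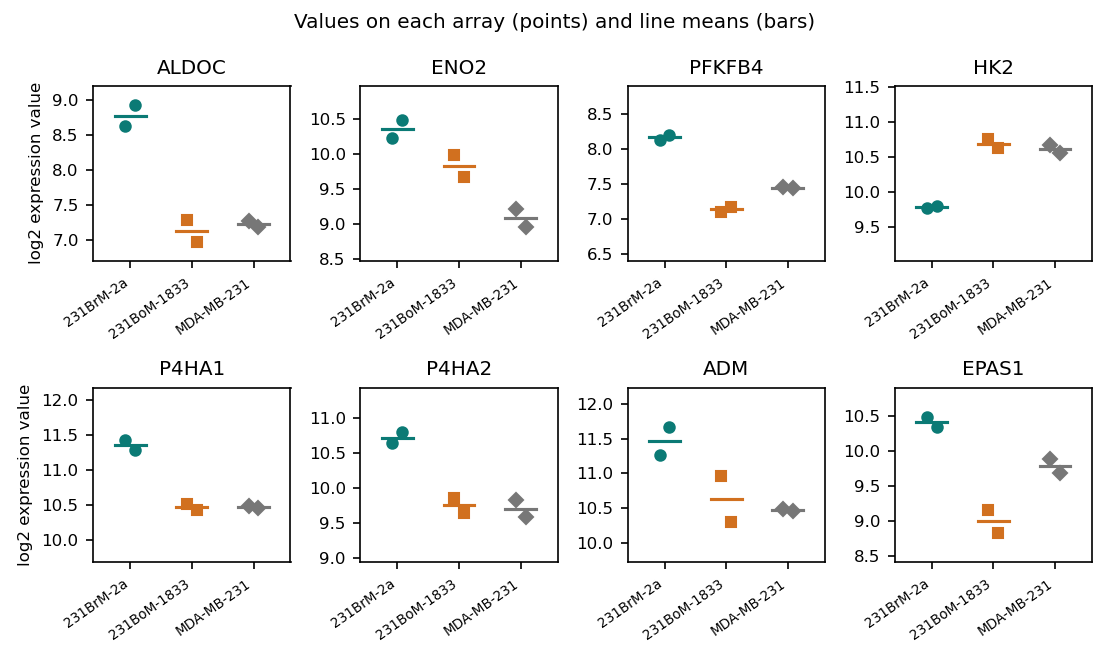
Log2 expression value (vertical axis) on each array (points) with the line mean (bar) for 8 members, in panels that all span the same log2 range. ALDOC, ENO2, PFKFB4, P4HA1, P4HA2 and ADM are highest in 231BrM-2a, HK2 is lowest there, and EPAS1 is highest in 231BrM-2a and lowest in 231BoM-1833.

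In the bone-selected line, few members were called. An unadjusted p under 0.05 (limma) was found for 13 of the 41. The share of all clusters under that limit was not counted, so this number cannot be set against it. Against MDA-MB-231, 2 of the 41 were higher, ENO2 and BNIP3L, and 1 was lower, EPAS1, beside 8.43% of all clusters called higher and 7.38% called lower. A share of 3 in 41 was below that of all clusters, 15.8% of which were called in either direction. At 1.5-fold or more, 1 was called higher and 1 lower, beside 4.81% and 2.23% of all clusters. The arrays of the 2 lines did not overlap for 22 of the 41, and for 59.8% of all clusters. The median change was -0.11 for the enzymes and 0.05 for the other genes, beside -0.05 for all clusters. The 38 members not called had changes between -0.42, for DDIT4, and 0.31, for SLC2A1 (adjusted p = 0.0663 to 0.995). Without parental array 1 there was 1 member higher and 0 lower, and without parental array 2 there were 0 higher and 1 lower. Without bone array 1, 2 were higher and 3 lower. PFKFB3, the relative of PFKFB4, differed by -0.35 ± 0.13 (adjusted p = 0.0954).

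The direct comparison of the derivatives called 16 members higher and 2 lower in 231BrM-2a than in 231BoM-1833, against 12.5% of all clusters called higher and 11.0% called lower. Of the enzymes, 7 were higher and 1 lower, and of the other genes, 9 were higher and 1 lower. At 1.5-fold or more, 9 were called higher and 1 lower, beside 6.26% and 6.48% of all clusters, and the arrays did not overlap for 31 of the 41 members and 60.1% of all clusters. This comparison shares the 231BrM-2a arrays with the comparison of 231BrM-2a with MDA-MB-231. ALDOC was 3.14-fold higher in 231BrM-2a (1.65 ± 0.14, adjusted p = 6.43e-05), PFKFB4 2.04-fold (1.03 ± 0.10, adjusted p = 0.000125) and GPI 1.70-fold (0.77 ± 0.12, adjusted p = 0.00151). HK2 was 1.87-fold lower (-0.90 ± 0.11, adjusted p = 0.000374). The phosphofructokinase genes PFKP and PFKL, which catalyse the committed step, were called here and not against MDA-MB-231. PFKP had 10.69 and 10.88 in 231BrM-2a and 10.31 and 10.34 in 231BoM-1833 (0.46 ± 0.11, adjusted p = 0.0176), and PFKL 9.65 and 9.80 in 231BrM-2a and 9.25 and 9.23 in 231BoM-1833 (0.48 ± 0.11, adjusted p = 0.0133). TPI1 was higher by 0.40 ± 0.12 and ENO2 by 0.53 ± 0.15 (adjusted p = 0.0367 and 0.0318). PFKP was not called without bone array 1 (0.0537) or brain array 2 (0.136), and PFKL not without brain array 2 (0.106). TPI1 was not called without bone array 2 (0.15), brain array 1 (0.0502) or brain array 2 (0.241), and ENO2 not without bone array 2 (0.158) or brain array 2 (0.207). Centring the arrays on their medians ended the calls of TPI1 (0.0647), ENO2 (0.0502) and PDK3 (0.0819) and left 13 members higher.

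Among the other genes, P4HA1 and P4HA2 were 1.86-fold and 1.95-fold higher in 231BrM-2a than in 231BoM-1833 (0.89 ± 0.11 and 0.97 ± 0.13, adjusted p = 0.000396 and 0.000811). PLOD1 was higher by 0.56 ± 0.11, PDK1 by 0.75 ± 0.10 and ADM by 0.83 ± 0.21 (adjusted p = 0.00528, 0.000866 and 0.0184). NDRG1 and PDK3 were higher by 0.41 ± 0.11 and 0.33 ± 0.10 (adjusted p = 0.0271 and 0.0422). The glucose transporters did not pass between the derivatives, at 0.20 ± 0.11 for SLC2A1 and 0.27 ± 0.14 for SLC2A3 (adjusted p = 0.233 and 0.232). ADM was not called without bone array 2 (0.0768, with a change of 0.50) or brain array 2 (0.135), and PLOD1 not without brain array 2 (0.054). NDRG1 was not called without bone array 1 (0.114), brain array 1 (0.14) or brain array 2 (0.0961). PDK3 was not called without bone array 1 (0.0767), bone array 2 (0.109), brain array 1 (0.188) or brain array 2 (0.137). The whole count was 8 higher without brain array 2.

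**Figure D4:**
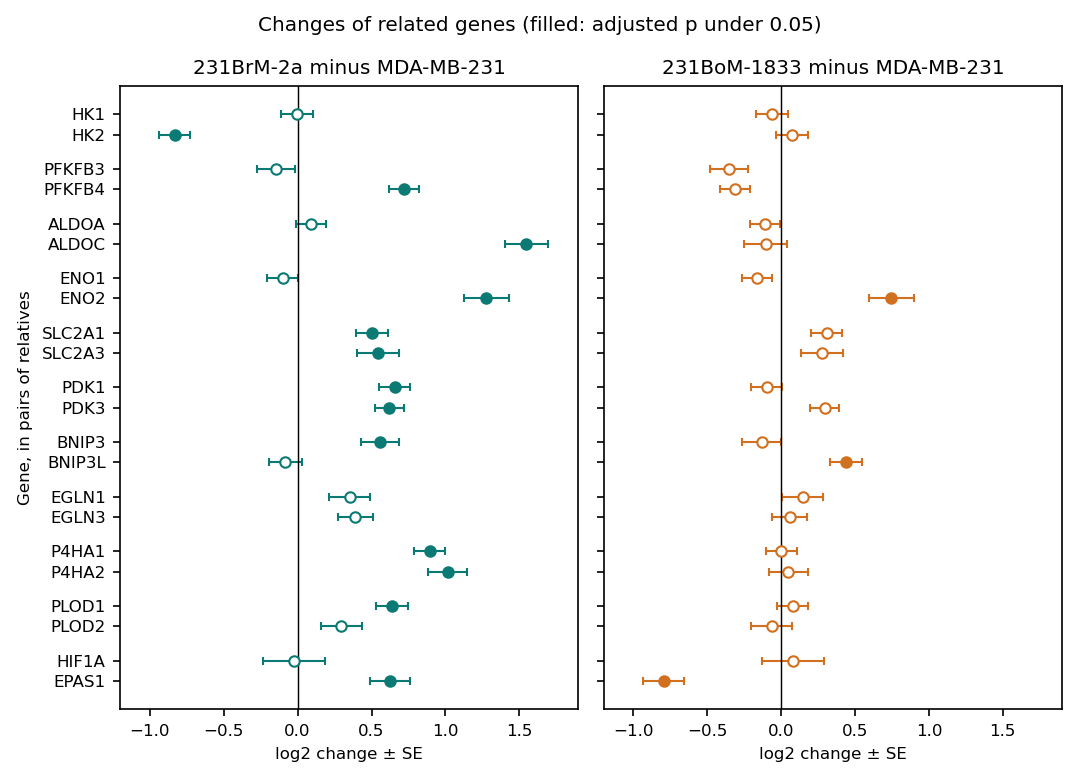
Log2 change ± SE (horizontal axis) of 11 pairs of related genes (vertical axis), 231BrM-2a minus MDA-MB-231 on the left and 231BoM-1833 minus MDA-MB-231 on the right, with filled points where the adjusted p was under 0.05. In the brain line 1 gene of a pair was called for hexokinase, PFKFB, aldolase, enolase, BNIP3, PLOD and the HIF alpha subunits, both for SLC2A, PDK and P4HA, and neither for EGLN. Both sides share the MDA-MB-231 arrays.

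The core hypoxia response element, ACGTG or GCGTG, was searched on both strands of the 250 bases before each RefSeq transcription start (GRCh38.p14). Windows were given for 38 of the 41 measured members. At least 1 match lay in 34 of these 38 genes (89.5%), beside 47.4% of 27305 genes, and in 42 of their 66 windows (63.6%), beside 43.2% of 35116 windows of all genes. The members had more windows per gene, which raises the first share, and they were picked as glycolysis and hypoxia genes. The windows of all genes were not matched to those of the members in base composition. Of the members higher in 231BrM-2a than in MDA-MB-231, 12 of 14 had a match, as did 20 of the 22 that were not called and both that were lower. Counted by window, a match lay in 12 of 15 windows of the members that were higher and in 26 of 46 windows of those not called, which have more windows per gene. A match is a description of the letters and not a measured binding site. The windows of the 4 members with the largest increases in 231BrM-2a are shown, with that of ENO1 as the relative of ENO2 that was not called, each written 5′ to 3′ on the gene's strand with the matches in capitals.
ALDOC upstream window, chr17:28576896-28577145 (- strand): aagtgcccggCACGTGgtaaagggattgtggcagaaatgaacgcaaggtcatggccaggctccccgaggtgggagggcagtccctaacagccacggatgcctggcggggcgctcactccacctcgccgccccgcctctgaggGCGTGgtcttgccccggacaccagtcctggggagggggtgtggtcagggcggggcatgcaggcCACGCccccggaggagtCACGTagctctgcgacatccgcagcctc
ENO2 upstream window, chr12:6914330-6914579 (+ strand): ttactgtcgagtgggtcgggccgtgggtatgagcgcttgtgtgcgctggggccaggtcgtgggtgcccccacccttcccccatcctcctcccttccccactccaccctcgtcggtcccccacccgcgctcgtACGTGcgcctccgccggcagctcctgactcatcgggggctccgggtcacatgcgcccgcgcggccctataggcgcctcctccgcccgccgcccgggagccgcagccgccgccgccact
P4HA2 upstream window, chr5:132227092-132227341 (- strand): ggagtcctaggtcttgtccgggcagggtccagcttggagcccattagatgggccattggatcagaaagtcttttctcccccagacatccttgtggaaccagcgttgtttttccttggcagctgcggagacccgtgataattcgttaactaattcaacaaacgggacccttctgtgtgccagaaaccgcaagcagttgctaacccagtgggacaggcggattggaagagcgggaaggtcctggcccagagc
ADM upstream window, chr11:10304823-10305072 (+ strand): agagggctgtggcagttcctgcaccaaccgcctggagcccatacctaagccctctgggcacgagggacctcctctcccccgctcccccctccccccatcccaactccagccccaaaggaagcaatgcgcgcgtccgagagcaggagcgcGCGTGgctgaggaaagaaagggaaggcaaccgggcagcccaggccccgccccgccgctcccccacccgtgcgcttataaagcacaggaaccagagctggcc
ENO1 upstream window, chr1:8878687-8878936 (- strand): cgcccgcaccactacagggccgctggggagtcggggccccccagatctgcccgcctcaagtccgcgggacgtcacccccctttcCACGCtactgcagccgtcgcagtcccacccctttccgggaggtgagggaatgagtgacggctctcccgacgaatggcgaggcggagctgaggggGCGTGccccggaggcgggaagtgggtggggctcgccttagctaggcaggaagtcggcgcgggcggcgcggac
ALDOC held 5 matches, of which 2 overlap in the palindrome near the far end, since both strands were read. ENO2 and ADM held 1 each and ENO1 held 2. P4HA2 held no match in this window.

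Other genes of the pathway were counted from lists chosen by function. Their counts stand beside the shares of all clusters called in either direction. These were 19.0% in 231BrM-2a and 15.8% in 231BoM-1833 against MDA-MB-231, and 23.5% between the derivatives. Among 10 genes of pyruvate entry into mitochondria, 4 rose and 1 fell in 231BrM-2a against MDA-MB-231, 2 rose and 1 fell in 231BoM-1833 against MDA-MB-231, and 3 were higher and 1 lower in 231BrM-2a than in 231BoM-1833. PDK4, a further kinase of pyruvate dehydrogenase that fasting and glucocorticoids induce, had 8.52 and 10.20 in 231BrM-2a, 6.58 and 6.27 in 231BoM-1833, and 6.72 and 6.47 in MDA-MB-231. Both brain-line arrays were far above the others, and they differed widely from each other. PDK4 rose by 2.77 ± 0.42 in 231BrM-2a against MDA-MB-231 (adjusted p = 0.00214), or by 3.60 without brain array 1 and 1.93 without brain array 2, and was higher by 2.93 ± 0.42 than in 231BoM-1833 (3.77 and 2.10 without the same arrays).

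Of the pyruvate dehydrogenase complex that these kinases regulate, PDHA1 and PDHB were called in 231BrM-2a against MDA-MB-231, and DLAT, DLD and PDHX were not (adjusted p = 0.187, 0.87 and 0.941). PDHA1, which encodes the regulated subunit of pyruvate dehydrogenase, had 11.06 and 11.16 in 231BrM-2a, 9.94 and 9.89 in 231BoM-1833, and 10.35 and 10.30 in MDA-MB-231. It rose by 0.78 ± 0.10 in 231BrM-2a and fell by 0.41 in 231BoM-1833 (adjusted p = 0.0011 and 0.0294). PDHB, the partner subunit, rose by 0.83 ± 0.11 in 231BrM-2a (adjusted p = 0.000959). In 231BoM-1833, PDP1, the phosphatase that reverses the kinases, rose by 0.81 ± 0.11, and the pyruvate carrier gene MPC2 by 0.75 ± 0.12 (adjusted p = 0.00211 and 0.00457). PDP1 was called lower in 231BrM-2a than in MDA-MB-231, at -0.51 ± 0.11 (limma, adjusted p = 0.0115). MPC2 rose in 231BrM-2a as well, by 0.64 ± 0.12 (adjusted p = 0.00599), and the derivatives differed by -0.11 ± 0.12 (adjusted p = 0.593). Between the derivatives PDHA1 was higher in 231BrM-2a by 1.19 ± 0.10, and PDP1 lower, at -1.32 ± 0.11. The bone-line call of PDHA1 was lost without parental array 1 (0.128), parental array 2 (0.117), bone array 1 (0.0543) or bone array 2 (0.0813).

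Of 20 further hypoxia-induced genes, 5 rose and 2 fell in 231BrM-2a against MDA-MB-231, 5 rose and 1 fell in 231BoM-1833 against MDA-MB-231, and 9 were higher and 5 lower in 231BrM-2a than in 231BoM-1833. INSIG2, which holds back the sterol regulator SREBP, rose by 1.20 ± 0.11 in 231BrM-2a and 0.77 ± 0.11 in 231BoM-1833 (adjusted p = 0.000135 and 0.00251). BHLHE40, a clock and stress repressor, rose by 1.19 ± 0.19 in 231BrM-2a (adjusted p = 0.00263). VEGFA, the angiogenic factor, had 8.94 and 8.42 in 231BrM-2a, 9.79 and 9.74 in 231BoM-1833, and 9.81 and 10.10 in MDA-MB-231. STC1, a secreted glycoprotein gene, had 8.29 and 8.45, 10.96 and 10.84, and 9.42 and 9.16 in the same lines. The brain line was lowest for both genes, and the bone line was highest for STC1. STC1 rose by 1.61 ± 0.13 in 231BoM-1833 (adjusted p = 0.000117) and was lower in 231BrM-2a than in 231BoM-1833, at -2.53 ± 0.13 (adjusted p = 2.24e-06). VEGFA was called lower in 231BrM-2a than in MDA-MB-231, at -1.27, the lowest change of the 20 genes. That call was kept under all 13 alternatives that refitted or rescaled the values of this comparison. VEGFA was lower in 231BrM-2a than in 231BoM-1833 as well, at -1.09 ± 0.17, and ANGPTL4, an inhibitor of lipoprotein lipase, higher by 1.39 ± 0.24. HMOX1, heme oxygenase, rose by 1.20 ± 0.25 in 231BoM-1833 (adjusted p = 0.0153), lost without parental array 1 (0.0826) or parental array 2 (0.0878), with a change of 0.79 without bone array 1.

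Of 11 further components of the HIF pathway, 1 (9.09%, beside 19.0% of all clusters) was called in 231BrM-2a against MDA-MB-231. This was ARNT2, a relative of the HIF partner ARNT, with 7.96 and 8.12 in 231BrM-2a, 6.73 and 6.77 in 231BoM-1833, and 6.94 and 6.89 in MDA-MB-231 (1.12 ± 0.11, adjusted p = 0.00018). With limma, 0 of the 11 were called in 231BoM-1833 against MDA-MB-231, where 4 had an unadjusted p under 0.05. The share of all clusters under that limit was not counted. Between the derivatives 4 were higher and 1 lower in 231BrM-2a, with ARNT2 at 1.29 ± 0.11, ELOB, a subunit of the VHL ubiquitin ligase, at 0.61 ± 0.11 and the asparagine hydroxylase gene HIF1AN at -0.43 ± 0.12. HIF1AN was not called without bone array 2 (0.124), brain array 1 (0.0601) or brain array 2 (0.17).

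Of 14 further isoenzymes and shunts of glycolysis, 2 rose and 1 fell in 231BrM-2a against MDA-MB-231, 1 rose in 231BoM-1833 against MDA-MB-231, and 2 were higher and 1 lower in 231BrM-2a than in 231BoM-1833. These shares of 21.4%, 7.14% and 21.4% were near or below the 19.0%, 15.8% and 23.5% of all clusters called. ADPGK, an ADP-dependent glucokinase, rose by 1.04 ± 0.11 in 231BrM-2a (adjusted p = 0.000385) and was higher than in 231BoM-1833 by 0.79 ± 0.11. The muscle enolase gene ENO3 rose by 0.48 ± 0.11 and PGM2 fell by 0.40 in 231BrM-2a (adjusted p = 0.0139 and 0.0421), with differences of 0.45 ± 0.11 and -0.56 ± 0.12 from 231BoM-1833. BPGM, which makes 2,3-bisphosphoglycerate, rose by 0.63 ± 0.17 in 231BoM-1833 (adjusted p = 0.0331). Against MDA-MB-231, ENO3 was not called without parental array 1 (0.0861), parental array 2 (0.0636) or brain array 1 (0.106), PGM2 without any 1 of the 4 arrays (0.137 to 0.185), and BPGM without parental array 1 (0.0729), parental array 2 (0.201) or bone array 1 (0.131). Between the derivatives, ENO3 was not called without bone array 2 (0.0583) or brain array 1 (0.115), nor PGM2 without brain array 2 (0.052).

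Glycogen storage and breakdown branch from glucose 6-phosphate. Of 7 glycogen genes, 2 rose and 2 fell in 231BrM-2a, and 1 rose and 3 fell in 231BoM-1833, each against MDA-MB-231, while 2 were higher and 1 lower in 231BrM-2a than in 231BoM-1833. The phosphorylase gene PYGB fell in both, by 0.88 in 231BrM-2a and by 0.56 in 231BoM-1833, and PPP1R3C, a targeting subunit that favours glycogen storage, fell by 1.04 in 231BrM-2a. The branching enzyme gene GBE1 rose by 0.49 ± 0.11 in 231BrM-2a, while the phosphorylase gene PYGL fell by 0.60 and the synthase gene GYS1 by 0.50 in 231BoM-1833. Between the derivatives GYS1 and PYGL were higher in 231BrM-2a by 0.90 ± 0.11 and 0.86 ± 0.11, and PPP1R3C was lower, at -0.72 ± 0.17. GBE1 was not called without parental array 1 (0.0742), parental array 2 (0.0751) or brain array 2 (0.109). The bone-line calls were lost for PYGL without parental array 1 (0.0609), for PYGB without parental array 1 (0.0683) or parental array 2 (0.0852), and for GYS1 without parental array 1 (0.108), parental array 2 (0.0878) or bone array 1 (0.0583). Between the derivatives PPP1R3C was not called without bone array 1 (0.0625, with a change of -0.45), brain array 1 (0.077) or brain array 2 (0.0764).

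Of 6 pentose phosphate genes, limma called 0 in 231BrM-2a against MDA-MB-231. There 1 had an unadjusted p under 0.05, a share not counted over all clusters. In 231BoM-1833 against MDA-MB-231, 2 fell. These were RPIA, by 0.63, and the transketolase gene TKT, by 0.48 (adjusted p = 0.0107 and 0.0211). Both were higher in 231BrM-2a than in 231BoM-1833, TKT by 0.73 ± 0.11 and RPIA by 0.57 ± 0.12, and RPE was lower, at -0.43 ± 0.14. The bone-line call of RPIA was lost without parental array 1 (0.0738) or parental array 2 (0.0518), and that of TKT without parental array 1 (0.094), parental array 2 (0.109) or bone array 1 (0.0699). Between the derivatives RPIA was not called without brain array 2 (0.0824), and RPE not without bone array 1 (0.208, with a change of -0.25), brain array 1 (0.103) or brain array 2 (0.23).

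Of 6 further sugar and lactate transporters, 1 rose and 1 fell in 231BrM-2a and 1 rose in 231BoM-1833, each against MDA-MB-231, and 1 was higher and 1 lower in 231BrM-2a than in 231BoM-1833. SLC2A12, which encodes GLUT12, rose in both derivatives, by 1.13 ± 0.16 in 231BrM-2a and 0.99 ± 0.16 in 231BoM-1833 (adjusted p = 0.00169 and 0.00512). Its values were low, at 6.15 and 6.23 in 231BrM-2a, 5.90 and 6.19 in 231BoM-1833, and 5.29 and 4.83 in MDA-MB-231. Array medians lay between 7.25 and 7.30. SLC16A7, a monocarboxylate carrier gene, fell by 0.41 in 231BrM-2a (adjusted p = 0.0443) and was lower than in 231BoM-1833, at -0.71 ± 0.12. SLC2A10 was higher in 231BrM-2a than in 231BoM-1833 by 0.44 ± 0.11. Against MDA-MB-231, SLC16A7 was not called without any 1 of the 4 arrays (0.0614 to 0.252), and SLC2A10 was not called between the derivatives without bone array 1 (0.0836), brain array 1 (0.0626) or brain array 2 (0.127).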

How the data were processed

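The authors deposited log2 expression values for each transcript cluster on each array. Per the submitters' processing notes these were made with RMA in Expression Console, with no version given. RMA corrects background, normalises the arrays together and summarises probes, so a shift shared by most genes is removed. No detection calls were used, depth has no meaning for arrays, and the 2 arrays per line limit the precision.

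Of 33297 clusters, 21214 had a gene symbol in the platform table, 19460 exactly 1 and 1754 several, and 12083 were unnamed here. Genes were named from clusters with 1 symbol. Of these clusters, 19429 matched a RefSeq gene (GRCh38.p14) by gene number, and 0 symbols needed an update. For a symbol on several clusters, the one with the highest mean over the 6 arrays was taken, which among members concerned TPI1 alone. Its 2 clusters changed in the same direction in all 3 comparisons.

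With limma 3.58.1 (R 4.3.3), lmFit estimated a mean per line from the 6 arrays together and eBayes moderated the variance (3 residual and 6.06 prior degrees of freedom). Tests were two-sided, and the Benjamini-Hochberg method was applied over the 21214 clusters. The fit was tested on simulated data. Alternatives changed the spread model, scaling, centring, filter, clusters tested, cluster choice, arrays in the fit, pairing, fold minimum (1.5-fold) and replicates.

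Members called at 1.5-fold or more are given on every array and other called members with their change. Uncalled members are named where they are relatives of a called member or regulators, and the others to account for the list. From each further list of pathway or hypoxia genes, up to 3 genes with the largest called change are named per comparison. Members and lists were chosen with earlier results of these data known.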

Additional observations from a re-analysis of the deposited data

Results flagged for a closer look

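The changes of the 2 derivatives against MDA-MB-231 differed from each other for 18 of the 41 members, beside 23.5% of all clusters. This was tested as the difference between 231BrM-2a and 231BoM-1833 with limma. It is the direct comparison of the derivatives given above, with the same 18 calls, and not a separate result. The log2 change was more positive in 231BrM-2a by 1.65 for ALDOC, 1.42 for EPAS1, 1.03 for PFKFB4, 0.97 for P4HA2, 0.89 for P4HA1, 0.83 for ADM, 0.77 for GPI and 0.75 for PDK1. Smaller differences in that direction were 0.69 for BNIP3, 0.56 for PLOD1, 0.53 for ENO2, 0.48 for PFKL, 0.46 for PFKP, 0.41 for NDRG1, 0.40 for TPI1 and 0.33 for PDK3. The difference was negative for HK2, at -0.90, and for BNIP3L, at -0.52. EPAS1 was the only one of these with calls of opposite direction against MDA-MB-231. Groups of 2 arrays are too small to look for a single array far from its group.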

How the results depend on the processing

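No called member changed direction under any alternative that refitted or rescaled the values. Calls kept in every one of them numbered 9 of 18 for 231BrM-2a and 0 of 3 for 231BoM-1833, each set against MDA-MB-231, and 9 of 18 between the derivatives. Leaving out 1 array changed the counts most: 8 to 10 members higher and 1 lower in 231BrM-2a against MDA-MB-231, 0 to 2 higher and 0 to 3 lower in 231BoM-1833 against MDA-MB-231, and 8 to 17 higher and 1 to 2 lower in 231BrM-2a against 231BoM-1833. These fits have fewer arrays. With a minimum of 1.5-fold, the counts in the same order were 10 higher and 1 lower, 1 higher and 1 lower, and 9 higher and 1 lower. With unnamed clusters tested too, 12 of the 39 calls were lost, leaving 11 higher and 1 lower in 231BrM-2a and 1 higher and 1 lower in 231BoM-1833, each against MDA-MB-231, and 11 higher and 2 lower between the derivatives. The cause was not tested. With the dimmest 33.3% of clusters left out, 2 were lower in 231BoM-1833 against MDA-MB-231, where fewer clusters were adjusted for. With the arrays centred on their medians, 13 were higher in 231BrM-2a than in 231BoM-1833. With the replicate number as a block, the counts were 16 higher and 2 lower in 231BrM-2a against MDA-MB-231, 2 and 1 in 231BoM-1833 against MDA-MB-231 and 14 and 2 in 231BrM-2a against 231BoM-1833, where TPI1 and PDK3 lost their calls (adjusted p = 0.0583 and 0.075). The shared replicate numbers were not taken as pairs, since deviations of same-numbered arrays from their line means correlated at 0.04, -0.16 and -0.17 between lines.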

Other observations

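A list of amino acid and unfolded protein response genes was counted beside the members. Of its 14 genes, 1 rose and 3 fell in 231BrM-2a against MDA-MB-231, 5 rose in 231BoM-1833 against MDA-MB-231, and 6 were lower in 231BrM-2a than in 231BoM-1833. These were 28.6%, 35.7% and 42.9% of the list, beside 19.0%, 15.8% and 23.5% of all clusters called. The genes named here were chosen after their values were seen. DDIT3, a stress-induced transcription factor gene, rose by 2.24 ± 0.32 in 231BoM-1833 (adjusted p = 0.00257). PHGDH, which starts serine synthesis from the glycolytic intermediate 3-phosphoglycerate, fell by 1.64 in 231BrM-2a against MDA-MB-231 (adjusted p = 0.000141), and was lower than in 231BoM-1833, at -2.13 ± 0.15. CHAC1, which degrades glutathione, fell by 0.87 in 231BrM-2a against MDA-MB-231 (adjusted p = 0.00219). ATF3 was the 1 gene of the list that rose in 231BrM-2a against MDA-MB-231, by 1.08, and it rose by 0.98 in 231BoM-1833. Both ATF3 calls were lost in some fits with 1 array left out.

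Replicate 1 stood above replicate 2 for 13 of 41 members in 231BrM-2a, 29 of 41 in 231BoM-1833 and 28 of 41 in MDA-MB-231, beside 46.8%, 49.6% and 50.6% of all clusters.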
